A study of Homo sapiens with 12 samples.

Results

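Long noncoding RNAs of prostate cells and of the nucleus were followed in LNCaP cells depleted of paxillin. The 9 RNAs are the rows for PCA3, PCGEM1, PART1, PCAT1, SCHLAP1, NEAT1, MALAT1, H19 and DIO3OS, out of 36137 gene symbols in the count table. Of these, 5 are prostate-linked RNAs, 2 are abundant nuclear RNAs, and H19 and DIO3OS come from imprinted chromosome regions. DIO3OS was chosen because it was higher with PXN siRNA in these libraries, so its PXN siRNA values below are a description without a test. LNCaP is an established human cell line, grown from a lymph node metastasis of a prostate carcinoma, that responds to androgen. Each of 4 groups held 3 libraries from LNCaP cells transfected for 48 h and then serum-starved for 12 h. The groups received non-specific siRNA with ethanol vehicle, non-specific siRNA with 2.5 nM dihydrotestosterone (DHT), PXN siRNA with vehicle, or PXN siRNA with 2.5 nM DHT, with 24 h of DHT or ethanol. PXN encodes paxillin, a focal adhesion adaptor protein, and DHT is the most potent natural androgen. The labels do not say whether the 3 libraries of a group came from separate cultures, so a p-value measures the spread between these libraries, which may be technical.

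Long noncoding RNAs are transcripts with no known protein product. NEAT1 is the scaffold of paraspeckles, nuclear bodies in which its long isoform is wrapped by RNA-binding proteins, and MALAT1 gathers in nuclear speckles beside splicing factors. PCA3 is a urine marker of prostate cancer, PCGEM1 and PART1 were described as prostate-restricted and androgen-linked, and PCAT1 and SCHLAP1 were described as raised in subsets of prostate tumours. H19 is made from the maternal chromosome next to IGF2, and DIO3OS is transcribed opposite DIO3, the gene for the deiodinase that inactivates thyroid hormone.

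The genes for NEAT1 (chr11:65422774-65445540) and MALAT1 (chr11:65497688-65506516) are neighbours on the plus strand, with 52147 bases between them in GENCODE 29 on GRCh38. Stretches at or near the 3′ ends of their RNAs are shown because the libraries were made with an mRNA kit. The first sequence is the last 80 bases of the short NEAT1 isoform (chr11:65426434-65426513), with the polyadenylation word AATAAA in capitals. The second is the last 80 bases of the long NEAT1 isoform (chr11:65445461-65445540), with a run of 5 or more A in capitals. The third is a stretch of MALAT1 (chr11:65506018-65506120), with its run of 13 A in capitals, where the mature RNA is known to be cut upstream of a tRNA-like piece. The fourth is the annotated end of the same MALAT1 transcript (chr11:65506390-65506469), beyond that cut, with AATAAA in capitals.
NEAT1 short isoform: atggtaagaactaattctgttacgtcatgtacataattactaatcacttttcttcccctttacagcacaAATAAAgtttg
NEAT1 long isoform: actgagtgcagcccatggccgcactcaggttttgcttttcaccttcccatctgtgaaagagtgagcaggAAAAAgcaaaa
MALAT1 A-run: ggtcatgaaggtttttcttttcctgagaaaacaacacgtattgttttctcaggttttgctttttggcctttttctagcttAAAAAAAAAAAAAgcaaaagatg
MALAT1 annotated end: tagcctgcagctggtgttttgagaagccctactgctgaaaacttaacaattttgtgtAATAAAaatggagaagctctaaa
Counts were summed per gene, so the isoforms of NEAT1 cannot be told apart in these data.

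DIO3OS (chr14:101552221-101560431, minus strand) and DIO3 (chr14:101561351-101563452, plus strand) lie head to head with 919 bases between their GENCODE 29 gene bodies. Their promoters are shown because both genes were higher with PXN siRNA. Each runs from 250 bases before to 50 bases after the RefSeq start on GRCh38.p14, and the starts lie 1072 bases apart. The DIO3OS window (chr14:101560373-101560672, read on the minus strand) was 81.7% G and C, and the DIO3 window (chr14:101561245-101561544) was 73.0%, against a median of 58.7% over 35116 promoters of the same length. The word TATAAA, in capitals, was found on the plus strand 32 bases before the DIO3 start. It was not found on either strand of the DIO3OS window, and 11.5% of the 35116 promoters hold it on either strand.
DIO3OS promoter: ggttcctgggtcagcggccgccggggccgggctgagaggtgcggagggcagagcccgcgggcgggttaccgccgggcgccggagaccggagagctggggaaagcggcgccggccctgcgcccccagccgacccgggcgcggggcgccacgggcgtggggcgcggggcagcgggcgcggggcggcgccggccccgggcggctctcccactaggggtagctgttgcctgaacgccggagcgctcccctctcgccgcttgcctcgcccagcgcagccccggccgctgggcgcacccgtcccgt
DIO3 promoter: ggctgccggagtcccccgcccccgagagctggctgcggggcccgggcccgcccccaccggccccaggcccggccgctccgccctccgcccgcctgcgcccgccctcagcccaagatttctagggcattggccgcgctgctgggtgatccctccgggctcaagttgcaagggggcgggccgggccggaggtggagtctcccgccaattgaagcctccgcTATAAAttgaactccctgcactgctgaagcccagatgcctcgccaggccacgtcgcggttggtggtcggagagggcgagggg
RefSeq promoters were matched for 6 of the 9 RNAs, all but PCAT1, SCHLAP1 and NEAT1. AGAACA, the core word of androgen response elements, occurred on the minus strand of the windows of PCGEM1, H19 and the downstream MALAT1 start, and 14.8% of all promoters hold it on either strand. These matches describe letters in the windows only.

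Library totals were 34321000 to 38633456 counts. The targeted gene PXN was at 14.9 to 21.2 CPM (counts scaled to a common library total) in the 6 PXN siRNA libraries and 99.7 to 113 CPM in the other 6. KLK3, the androgen-induced gene for prostate-specific antigen, was 1.78 ± 0.23 (log2, SE) higher with DHT after non-specific siRNA and 2.06 ± 0.23 higher after PXN siRNA (edgeR quasi-likelihood, adjusted p = 0.000392 and 0.00191). Of the markers that define LNCaP as luminal and androgen-sensitive, KLK3, FOLH1, KRT8 and KRT18 had at least 3299 counts in each of the 12 libraries. Of 10 markers of stromal, endothelial, immune and basal cells, TP63, KRT5, PTPRC and PECAM1 had 0 to 3 counts per library, and LUM and KRT14 had 2 to 29. The other 4 were present in every library, COL1A1 at 632 to 1385 counts, VWF at 444 to 795, TAGLN at 150 to 345 and COL3A1 at 101 to 277. The share of mitochondrially encoded counts was 4.69 to 7.55% with non-specific siRNA and 8.13 to 8.95% with PXN siRNA. Among the non-specific siRNA libraries it was highest in the number 2 libraries, at 7.55% with vehicle and 6.56% with DHT. The summed level of 10 interferon response genes was 155 to 178 CPM with non-specific siRNA and 293 to 397 CPM with PXN siRNA, and 9 of the 10 rose under either treatment. The 10 markers of other cell types summed to 42.8 to 52.7 CPM with non-specific siRNA and 58.7 to 71.6 CPM with PXN siRNA. Of the 6 markers tested, 2 rose (COL1A1 and TAGLN) and 2 fell (COL3A1 and LUM) under vehicle, and under DHT KRT14 fell too. With PXN siRNA 23.9% of all tested genes rose and 26.3% fell under vehicle, and 25.0% and 26.7% under DHT. The part that these shares and genes have in the results below was not tested.

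The 9 RNAs spanned a wide range of levels. Per kb of GENCODE 29 exons, with non-specific siRNA and vehicle, the mean level was 36.9 ± 12.5 CPM per kb (SD, n = 3) for MALAT1 and 27.7 ± 9.65 for NEAT1. SCHLAP1 followed at 18.5 ± 0.709 CPM per kb, then PCAT1 at 1.43 ± 0.154 and DIO3OS at 0.448 ± 0.163. PART1 was at 0.301 ± 0.0400 CPM per kb, PCGEM1 at 0.286 ± 0.0423 and PCA3 at 0.0263 ± 0.0139. In that order MALAT1 overlapped NEAT1, and DIO3OS, PART1 and PCGEM1 overlapped their neighbours, while SCHLAP1, PCAT1 and PCA3 stood apart from theirs. The order of these 8 did not change when the longest transcript was used as the length, although the PCAT1 value then became 12.1 CPM per kb. With PXN siRNA and vehicle DIO3OS, at 5.05 ± 1.56 CPM per kb, stood above PCAT1 at 0.649 ± 0.142.

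**Figure D1:**
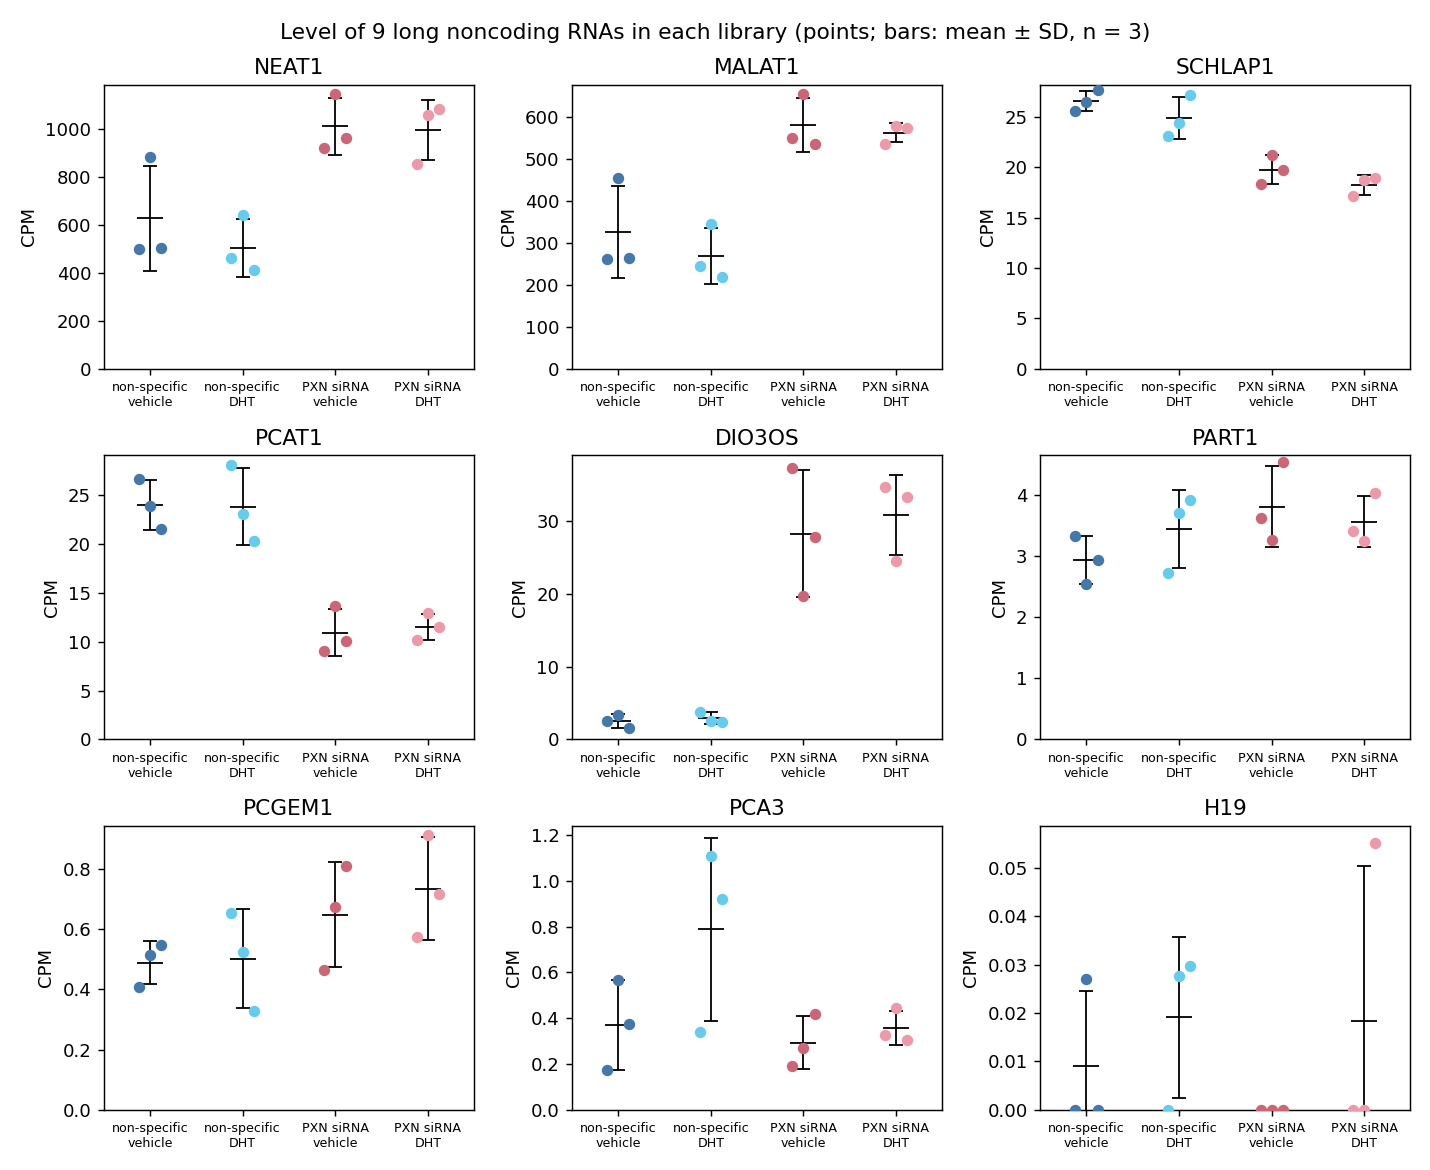
Level of each RNA in CPM (vertical axis, linear, starting at 0) in the 4 groups, with points for libraries and bars for mean ± SD (n = 3). Within each treatment NEAT1, MALAT1 and DIO3OS were higher in all PXN siRNA libraries than in the non-specific siRNA libraries, PCAT1 and SCHLAP1 were lower, and H19 had 0 to 2 counts.

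PXN siRNA was compared with non-specific siRNA under vehicle and, with separate libraries, under DHT. Of the 7 tested RNAs that were not chosen on these values, NEAT1 and MALAT1 rose and PCAT1 and SCHLAP1 fell under vehicle, 4 of 7, where 50.2% of all 18468 tested genes were called (23.9% higher, 26.3% lower). Under DHT PCA3 also fell, which made 5 of 7, where 51.8% of all genes were called (25.0% higher, 26.7% lower). With about as many genes called as not in either comparison, and only 7 RNAs, these counts are no result about the RNAs as a group. With upper-quartile scaling the median of all genes moved from 0.02 to 0.12 (log2) under vehicle and from 0.03 to 0.13 under DHT. The share of called genes that were higher then went from 47.7% to 60.2% and from 48.3% to 60.7%.

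NEAT1 and MALAT1 were higher with PXN siRNA under both treatments. In bulk RNA, fewer cells of a type and less RNA per cell cannot be told apart. NEAT1 was at 502, 883 and 504 CPM in the 3 libraries with non-specific siRNA and vehicle, and at 924, 1148 and 965 CPM with PXN siRNA and vehicle. The groups did not overlap, and the number 2 library of the non-specific siRNA lay closest to the PXN siRNA libraries. NEAT1 rose 1.61-fold, by 0.69 ± 0.20 on the log2 scale (edgeR, adjusted p = 0.0113). Without the number 1 non-specific vehicle library the call was lost, at 0.53 and adjusted p = 0.0529, and without the number 3 library it was lost as well, at 0.55 and adjusted p = 0.0603. Under DHT NEAT1 was at 463, 643 and 413 CPM with non-specific siRNA and 855, 1059 and 1084 CPM with PXN siRNA. Again the groups did not overlap, the number 2 library was the highest of the controls, and the rise was 1.97-fold, 0.98 ± 0.20 on the log2 scale (edgeR, adjusted p = 0.000974).

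MALAT1 had 261, 453 and 263 CPM with non-specific siRNA and vehicle, and 550.1, 653 and 535 CPM with PXN siRNA and vehicle. It rose 1.78-fold, by 0.83 ± 0.19 on the log2 scale (edgeR, adjusted p = 0.00235), and the same number 2 control library was the highest of its group. Under DHT it had 244, 344 and 219 CPM with non-specific siRNA and 536, 578 and 572 CPM with PXN siRNA. The groups were apart in both treatments, and the rise under DHT was 2.09-fold, 1.06 ± 0.19 on the log2 scale (edgeR, adjusted p = 0.000343). The range over the 22 settings was 0.68 to 1.12 under vehicle and 0.93 to 1.26 under DHT, all called.

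The 2 nuclear RNAs kept close to a fixed ratio to each other. There were 1.60 to 1.95 NEAT1 counts per MALAT1 count over the 12 libraries, and the ratio was 1.93 ± 0.0193 (SD, n = 3) with non-specific siRNA and vehicle and 1.75 ± 0.0621 with PXN siRNA and vehicle. Among 14025 other genes averaging 1 CPM or more, MALAT1 had the profile most like NEAT1 across the 12 libraries (Pearson r = 0.991 of log2 CPM), and NEAT1 was the most like MALAT1. ENO3, a muscle-type enolase, came next for both, at r = 0.989 and 0.987. Within the 6 non-specific siRNA libraries r between NEAT1 and MALAT1 was 0.999, and within the 6 PXN siRNA libraries 0.841.
With the mitochondrial share r was 0.886 for NEAT1 and 0.896 for MALAT1 within the non-specific siRNA libraries, and 0.860 and 0.977 within the PXN siRNA libraries. These r values are descriptions over libraries that share their scaling and, in part, their treatment. With both number 2 non-specific siRNA libraries left out, the vehicle difference was 0.99 for NEAT1 and 1.12 for MALAT1, and the DHT difference was 1.17 and 1.26. With mitochondrially encoded genes left out of the totals, it was 0.70 and 0.84 under vehicle and 0.99 and 1.07 under DHT. Both alternatives were chosen after seeing the data.

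**Figure D2:**
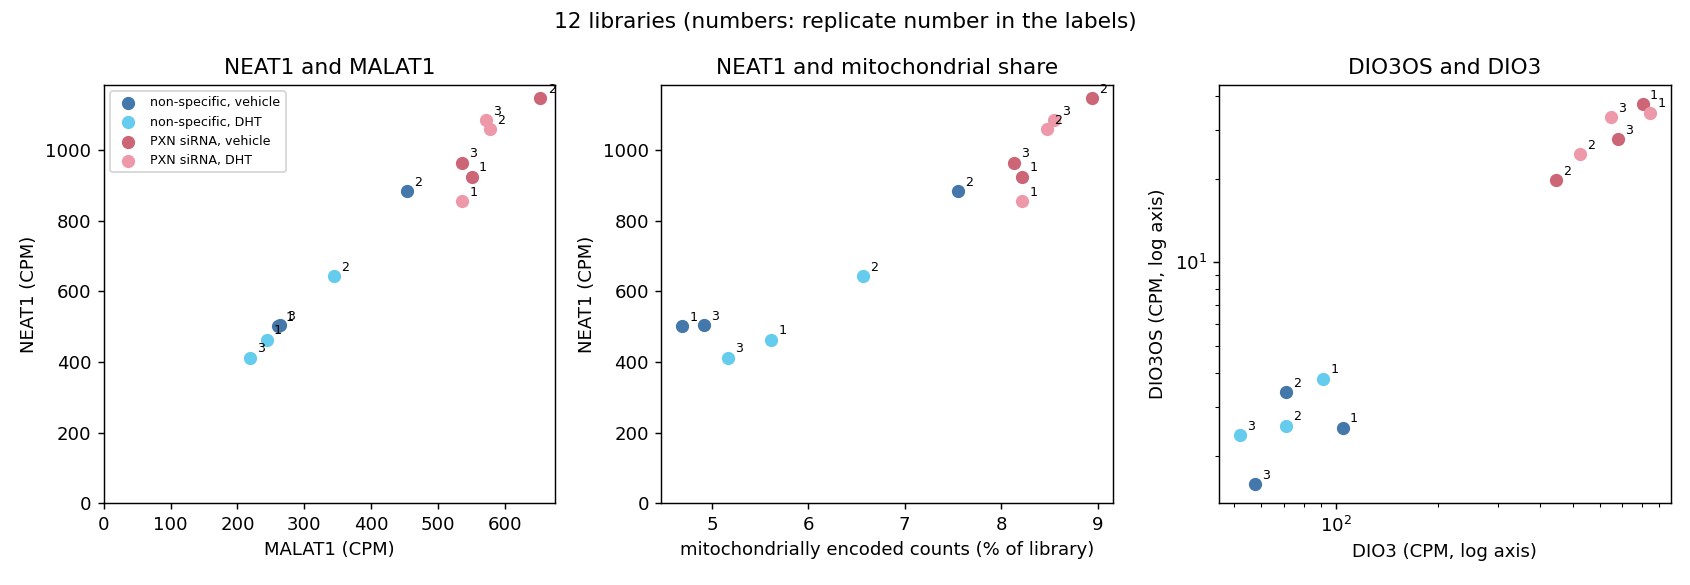
Left, NEAT1 against MALAT1 in CPM; middle, NEAT1 against the percentage of mitochondrially encoded counts; right, DIO3OS against DIO3 in CPM on log axes, with 1 point for each of 12 libraries and its replicate number beside it. NEAT1 and MALAT1 lie along a line, and DIO3OS and DIO3 form separate clusters by siRNA. On the MALAT1 and mitochondrial axes the number 2 non-specific siRNA libraries stand between the other controls and the PXN siRNA libraries. On the NEAT1 axis the number 2 vehicle control (883 CPM) lies above PXN siRNA with DHT number 1 (855 CPM).

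Neighbours of the 2 nuclear RNAs on chromosome 11 were also measured. FRMD8, 9248 bases before NEAT1, rose by 0.47 ± 0.06 (log2) under vehicle and 0.37 ± 0.06 under DHT (edgeR, adjusted p = 3.06e-05 and 0.000202). LTBP3, another listed neighbour, differed by -0.14 ± 0.11 and -0.01 ± 0.11 (edgeR, adjusted p = 0.305 and 0.939).

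Transcripts of genes for paraspeckle proteins fell while NEAT1 rose, and no protein was measured. Of 16 listed, all tested, 0 rose and 13 fell with PXN siRNA under each treatment, against 26.3% and 26.7% of all genes lower, and the median difference was -0.39 (log2) under both, against 0.02 and 0.03 over all genes. HNRNPH3, which encodes an RNA-binding protein of paraspeckles, fell by 0.72 ± 0.08 under vehicle and by 0.70 ± 0.08 under DHT (edgeR, adjusted p = 6.91e-06 and 7.72e-06). NUDT21, which encodes a subunit of the cleavage factor that favours the short NEAT1 isoform, fell by 0.50 ± 0.06 and by 0.54 ± 0.06 (edgeR, adjusted p = 1.39e-05 and 6.53e-06). TARDBP, which encodes an RNA-binding protein of the same bodies, fell by 0.45 ± 0.06 under vehicle (edgeR, adjusted p = 3.31e-05). TAF15, which encodes another RNA-binding protein, fell by 0.44 ± 0.06 under DHT (edgeR, adjusted p = 5.44e-05). With upper-quartile scaling the falls were 11 under vehicle and 10 under DHT.

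Of 15 tested genes for nuclear speckle proteins, splicing factors and MALAT1 processing, 2 rose and 8 fell under vehicle, and 1 rose and 8 fell under DHT. Over all genes 23.9% rose and 26.3% fell under vehicle, and 25.0% and 26.7% under DHT. The median differences of the list were -0.20 and -0.27. SRSF3, the gene for an SR splicing factor, fell by 0.64 ± 0.09 under vehicle and by 0.61 ± 0.09 under DHT (edgeR, adjusted p = 4.23e-05 and 6.07e-05). SRSF1, the gene for an SR protein that binds MALAT1, fell by 0.60 ± 0.09 and by 0.55 ± 0.09 (edgeR, adjusted p = 6.94e-05 and 0.000129). ELAC2, the gene for the tRNA 3′ processing enzyme that trims the tRNA-like piece of MALAT1, fell by 0.42 ± 0.06 under vehicle (edgeR, adjusted p = 8.85e-05). The kinase gene CLK1 rose under both treatments and DGCR8 under vehicle. With upper-quartile scaling 4 rose and 6 fell under vehicle, and 4 rose and 7 fell under DHT.

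**Figure D3:**
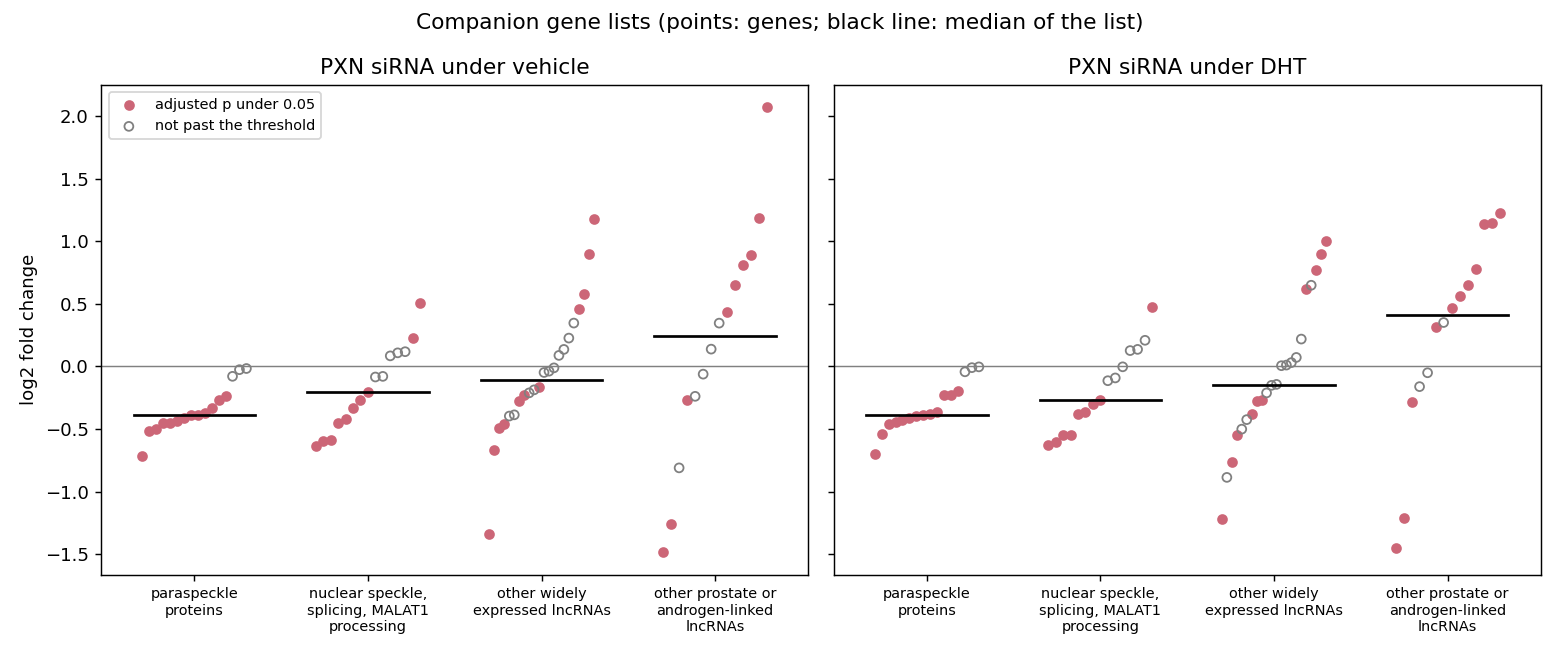
Log2 fold change (vertical axis) of each tested gene of 4 lists with PXN siRNA under vehicle (left) and under DHT (right), filled where the adjusted p was under 0.05, with a black line at the list's median. All 13 called paraspeckle genes lie below 0 in both panels, with a median of -0.39, and the other lists spread to both sides.

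PCAT1 fell with PXN siRNA to less than its level in any control library. It is a prostate RNA on chromosome 8 whose annotated gene spans other genes, some on the opposite strand, and how the counting treated strand is not known, so reads from the other strand may be among its counts. It had 26.7, 23.9 and 21.5 CPM with non-specific siRNA and vehicle and 9.05, 13.6 and 10.1 CPM with PXN siRNA and vehicle. The groups did not overlap, and PCAT1 was 2.20-fold lower, a log2 difference of -1.14 ± 0.15 (edgeR, adjusted p = 2.53e-05). Under DHT it had 28.1, 23.1 and 20.4 CPM with non-specific siRNA and 10.2, 12.9 and 11.5 CPM with PXN siRNA. The groups were again apart, at 2.07-fold lower or -1.05 ± 0.15 on the log2 scale (edgeR, adjusted p = 4.82e-05). Over the 22 settings the difference was -1.33 to -1.02 under vehicle and -1.15 to -0.91 under DHT, called in each. The profiles most like PCAT1 over the 12 libraries were those of PTGFR, the prostaglandin F receptor (r = 0.994), RDH11, a retinol dehydrogenase (r = 0.993), and METTL8 (r = 0.989).

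SCHLAP1 (chr2:180692104-180916939, plus strand) showed a smaller fall. It overlaps 2 noncoding genes on the opposite strand, AC009478.1 and FTH1P20, with at most 154 counts in any library. It had 25.6, 26.5 and 27.6 CPM with non-specific siRNA and vehicle and 18.3, 21.2 and 19.8 CPM with PXN siRNA and vehicle. The groups did not overlap, and the log2 difference was -0.43 ± 0.08, or 1.34-fold lower (edgeR, adjusted p = 0.000488). Under DHT it had 23.2, 24.4 and 27.2 CPM with non-specific siRNA and 17.1, 18.8 and 18.9 CPM with PXN siRNA. That was 1.36-fold lower, -0.45 ± 0.08 on the log2 scale, with no overlap (edgeR, adjusted p = 0.000328). UBE2E3, a ubiquitin-conjugating enzyme gene and listed neighbour, fell by 0.72 ± 0.07 and by 0.69 ± 0.07 (edgeR, adjusted p = 1.38e-06 and 1.82e-06). CWC22, the nearest gene before SCHLAP1 and a splicing factor, differed by -0.12 ± 0.08 and -0.08 ± 0.08. The profiles most like SCHLAP1 were those of MTMR6 (r = 0.988), RPS6KA6 and KCTD3 (both r = 0.987).

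PCA3, PCGEM1 and PART1 were scarce. PCA3 (chr9:76691980-76863307, plus strand) lies inside PRUNE2 on the opposite strand, and had 6, 21 and 13 counts with non-specific siRNA and vehicle and 7, 10 and 16 with PXN siRNA and vehicle. The groups overlapped, and the log2 difference was -0.35 ± 0.51 (edgeR, adjusted p = 0.594). Under DHT it had 12, 40 and 31 counts with non-specific siRNA and 12, 16 and 11 with PXN siRNA. PCA3 was 2.19-fold lower there, -1.13 ± 0.45 on the log2 scale (edgeR, adjusted p = 0.0463), although the groups overlapped in CPM. The call was lost with upper-quartile scaling (-1.03, adjusted p = 0.0688), with limma-voom (-0.97, adjusted p = 0.101), with the DESeq2 Wald test (-1.14, adjusted p = 0.0528) and without both number 2 non-specific siRNA libraries (-0.82, adjusted p = 0.161). It was also lost when any 1 of 7 libraries was left out: number 3 of the non-specific vehicle group, numbers 2 and 3 of the non-specific DHT group, number 2 of the PXN vehicle group, or any PXN DHT library. The log2 difference without each of these was, in that order, -1.13, -0.82, -1.01, -1.13 and, for PXN DHT numbers 1 to 3, -1.07, -1.31 and -1.03. The adjusted p was 0.0574, 0.184, 0.126, 0.0551 and, for PXN DHT numbers 1 to 3, 0.109, 0.0557 and 0.126 (edgeR).

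PRUNE2, the host gene of PCA3, had 14895 to 44813 counts per library, and PCA3 had 1.34 to 10.5 counts for each 10000 of PRUNE2. PRUNE2 fell by 1.41 ± 0.09 (log2) under vehicle and by 1.42 ± 0.09 under DHT (edgeR, adjusted p = 7.08e-08 and 6.78e-08). Without the strand setting, PCA3 counts cannot be told apart from a small share of PRUNE2 reads. Within the 6 non-specific siRNA libraries r between PCA3 and PRUNE2 was -0.671, and within the 6 PXN siRNA libraries -0.606. GCNT1, a mucin glycosylation enzyme gene, is the nearest gene before PCA3. Its level was lower with PXN siRNA, with log2 differences of -0.99 ± 0.11 under vehicle and -1.13 ± 0.11 under DHT. The profiles most like PCA3 were those of PRDM15 (r = 0.917), DDHD1 (r = 0.912) and RRP12 (r = 0.897).

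PCGEM1 (chr2:192749845-192776899) had 14, 19 and 19 counts with non-specific siRNA and vehicle, 23, 19 and 11 with non-specific siRNA and DHT, 17, 25 and 31 with PXN siRNA and vehicle, and 21, 33 and 26 with PXN siRNA and DHT. The siRNA groups overlapped under each treatment, with log2 differences of 0.41 ± 0.31 under vehicle and 0.54 ± 0.31 under DHT (edgeR, adjusted p = 0.301 and 0.156). No difference was detected for PCGEM1, which does not show that there was none. The most alike profiles were those of GATSL3 (r = 0.886), CLPTM1 (r = 0.858) and PDZD4 (r = 0.855).

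PART1 (chr5:60487713-60547657, plus strand) overlaps PDE4D, a cyclic AMP phosphodiesterase gene on the opposite strand. It had 3.32, 2.54 and 2.93 CPM with non-specific siRNA and vehicle and 3.62, 3.26 and 4.55 CPM with PXN siRNA and vehicle. The groups overlapped, and the difference of 0.38 ± 0.18 did not pass (edgeR, adjusted p = 0.0890). It passed with the replicate number as a block (0.37, adjusted p = 0.0450) and with upper-quartile scaling (0.48, adjusted p = 0.0352). Under DHT the levels were 2.72, 3.71 and 3.92 CPM with non-specific siRNA and 3.42, 3.24 and 4.03 CPM with PXN siRNA, a difference of 0.05 ± 0.18 (edgeR, adjusted p = 0.842). PDE4D fell by 0.51 ± 0.16 under vehicle (edgeR, adjusted p = 0.0176) and differed by -0.03 ± 0.17 under DHT. DEPDC1B, a mitotic gene 49254 bases after PART1, fell by 2.39 ± 0.16 and by 2.09 ± 0.15 (edgeR, adjusted p = 8.96e-08 and 1.64e-07). The profiles most like PART1 were those of CDR2 (r = 0.895), KRT8, a luminal keratin (r = 0.859), and SLC25A38 (r = 0.825).

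DIO3OS had 2.54, 3.41 and 1.58 CPM with non-specific siRNA and vehicle and 37.3, 19.8 and 27.9 CPM with PXN siRNA and vehicle. Under DHT it had 3.80, 2.57 and 2.38 CPM with non-specific siRNA and 34.7, 24.5 and 33.3 CPM with PXN siRNA. The lowest PXN siRNA library was above the highest control in each treatment, and the number 2 library was the lowest of both PXN siRNA groups. The difference was 11.2-fold (3.49 ± 0.27 on the log2 scale) under vehicle and 10.6-fold (3.40 ± 0.27) under DHT, given without a test because DIO3OS was chosen for it.

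DIO3 was high in the same libraries. It was listed with earlier results of these data known, so its tests below are not independent evidence. It had 104, 70.8 and 57.6 CPM with non-specific siRNA and vehicle and 803, 447 and 678 CPM with PXN siRNA and vehicle. The number 2 library was again the lowest with PXN siRNA, and DIO3 rose 8.28-fold, 3.05 ± 0.27 on the log2 scale (edgeR, adjusted p = 6.70e-07). Under DHT DIO3 had 91.4, 70.8 and 51.8 CPM with non-specific siRNA and 845, 525 and 647 CPM with PXN siRNA, a 9.42-fold rise, 3.24 ± 0.27 on the log2 scale (edgeR, adjusted p = 4.46e-07). There were 24.3 to 51.5 DIO3OS counts for each 1000 of DIO3, with a median of 42.9 over the 12 libraries. Within the 6 PXN siRNA libraries r between DIO3OS and DIO3 was 0.936, and within the 6 non-specific siRNA libraries 0.532. Over all 12 libraries DIO3 was number 33 among the profiles most like DIO3OS (r = 0.987), after CYP3A5, a drug-metabolising cytochrome P450 (r = 0.994), ERICH1 and PVRL4, a nectin (both r = 0.993).

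Other genes of thyroid hormone handling changed less. Of 6 tested genes, 2 rose and 1 fell under each treatment, among them DIO3, which rose, and the thyroid hormone receptor gene THRA, which fell. Over all genes 23.9% rose and 26.3% fell under vehicle, and 25.0% and 26.7% under DHT. THRA fell by 0.21 ± 0.07 (log2) under vehicle and by 0.29 ± 0.07 under DHT (edgeR, adjusted p = 0.0200 and 0.00251). With upper-quartile scaling THRA was not called under vehicle.

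H19 (chr11:1995176-2001470, minus strand) had 5 counts in all 12 libraries together. There were 0, 1 and 0 counts with non-specific siRNA and vehicle, 0, 1 and 1 with non-specific siRNA and DHT, 0 in each library with PXN siRNA and vehicle, and 0, 0 and 2 with PXN siRNA and DHT. A count of 0 allows up to 3 counts, or 0.0784 to 0.0874 CPM in the libraries at 0, which covers counting error only. This limit does not apply to the libraries with 1 or 2 counts. H19 did not pass the filter on low counts, and no difference could be detected at this depth. Its neighbour IGF2, a growth factor gene, differed by -0.32 ± 0.38 and -0.15 ± 0.40 with PXN siRNA (edgeR, adjusted p = 0.509 and 0.781).

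**Figure D4:**
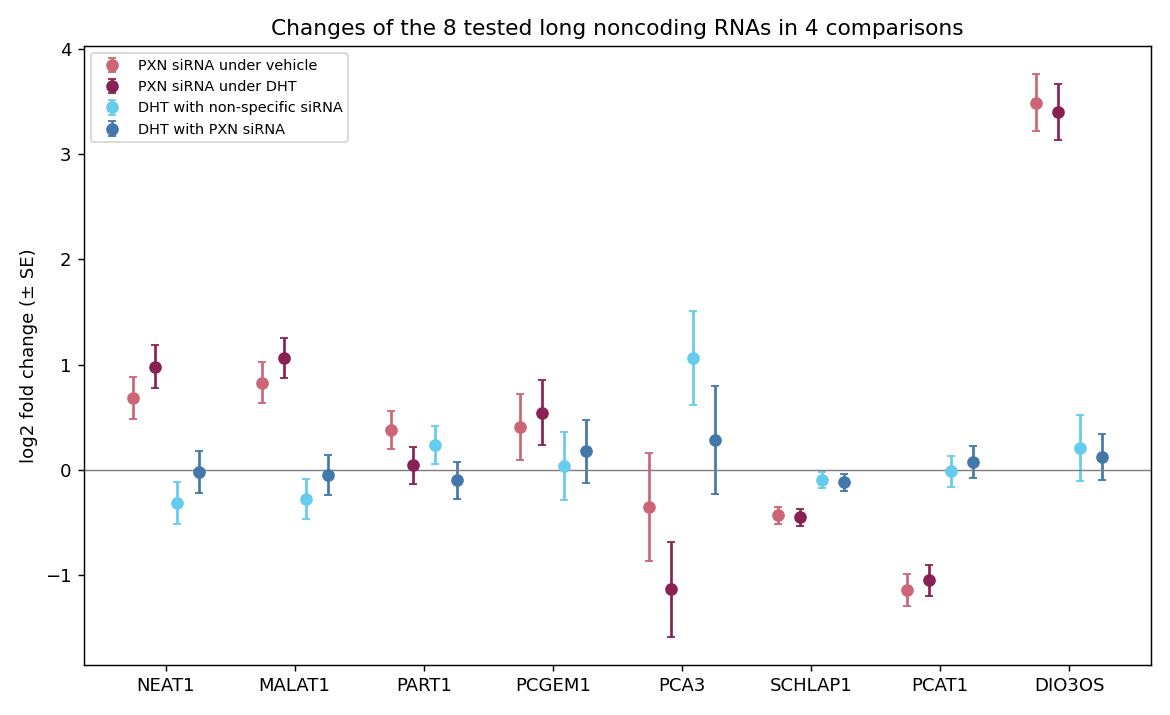
Log2 fold change ± SE (vertical axis) of the 8 tested RNAs in the 4 pairwise comparisons, DIO3OS being shown without a test for PXN siRNA. The PXN siRNA points of NEAT1 and MALAT1 lie above 0 and those of PCAT1 and SCHLAP1 below it. In the model drawn, which held no pairing term, DHT moved none past the threshold. With the replicate number as a block, PCA3 passed for DHT with non-specific siRNA (1.06, edgeR, adjusted p = 0.0457).

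DHT was compared with vehicle within each siRNA. In edgeR 0 of the 7 RNAs were called with non-specific siRNA, where 4.87% of all genes were called (2.72% higher, 2.16% lower; 900 genes, or 2236 with the replicate number as a block). None of the 7 was called with PXN siRNA, where 0.184% of all genes were called (34 genes, or 346 with the block). At an unadjusted p under 0.05, 1 of the 7 passed with non-specific siRNA, PCA3, and 0 with PXN siRNA, and DESeq2 and limma-voom called 0 in both. PCA3 went from 6, 21 and 13 counts with vehicle to 12, 40 and 31 with DHT, higher in 3 of 3 libraries of the same number. The difference was 1.07 ± 0.45 on the log2 scale (edgeR, adjusted p = 0.237). It passed with the replicate number as a block (1.06, adjusted p = 0.0457) and without number 1 of the non-specific DHT group (1.43, adjusted p = 0.0390). With PXN siRNA the PCA3 difference was 0.28 ± 0.51 (edgeR, adjusted p = 0.955).

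The other RNAs moved little with DHT. NEAT1 differed by -0.31 ± 0.20 (log2) and MALAT1 by -0.28 ± 0.19 with non-specific siRNA (edgeR, adjusted p = 0.498 and 0.541). Without the number 2 library of the vehicle group these values were 0.01 and 0.04, and without both number 2 libraries they were -0.20 and -0.18. PCAT1 differed by -0.01 ± 0.15 and SCHLAP1 by -0.09 ± 0.08 (edgeR, adjusted p = 0.983 and 0.643). PCGEM1 differed by 0.04 ± 0.33 and PART1 by 0.24 ± 0.18 (edgeR, adjusted p = 0.971 and 0.594). DIO3OS differed by 0.21 ± 0.31 with non-specific siRNA and 0.12 ± 0.22 with PXN siRNA (edgeR, adjusted p = 0.821 and 0.953). Both comparisons use libraries on which DIO3OS was chosen, so neither is an independent test.

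The interaction asked whether the DHT response differed between the siRNAs. It was called for 0 of the 7 RNAs, where 0.0% of all genes were called by edgeR, 778 genes had an unadjusted p under 0.05 and DESeq2 called 29. The estimates were -0.78 ± 0.68 for PCA3, 0.30 ± 0.28 for NEAT1, 0.23 ± 0.27 for MALAT1 and 0.09 ± 0.21 for PCAT1 (edgeR, adjusted p = 1.000 for each).

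Other prostate or androgen-linked long noncoding RNAs moved both ways with PXN siRNA. Of 14 tested of 22 listed, 6 rose and 3 fell under vehicle and 8 rose and 3 fell under DHT. Over all genes 23.9% rose and 26.3% fell under vehicle, and 25.0% and 26.7% under DHT. The median differences of the list were 0.24 and 0.41. CBR3-AS1, antisense to the carbonyl reductase gene CBR3, rose by 1.18 ± 0.11 under vehicle and 1.14 ± 0.11 under DHT (edgeR, adjusted p = 7.90e-07 and 1.06e-06). TMPO-AS1, transcribed opposite the nuclear lamina gene TMPO, fell by 1.26 ± 0.16 and by 1.21 ± 0.16 (edgeR, adjusted p = 1.77e-05 and 2.68e-05). KLKP1, a transcribed pseudogene of the kallikrein locus, fell by 1.49 ± 0.26 under vehicle (edgeR, adjusted p = 0.000242). KLKP1 rose with DHT in the non-specific siRNA libraries by 1.09 ± 0.22, and CTBP1-AS rose by 0.89 ± 0.20 while DRAIC fell by 0.55 ± 0.10 (edgeR, adjusted p = 0.0103, 0.0170 and 0.00369). Without number 3 of the vehicle group or number 2 of the DHT group, 1 of the 14 was called in that comparison, and it was lower. Near-identical copies and antisense partners make the values of KLKP1 and the antisense RNAs uncertain.

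Of 22 tested widely expressed nuclear or regulatory long noncoding RNAs, 4 rose and 7 fell under vehicle, and 4 rose and 6 fell under DHT, with medians of -0.10 and -0.15. CRNDE, an RNA raised in several tumour types, rose by 0.46 ± 0.07 under vehicle and 0.77 ± 0.07 under DHT (edgeR, adjusted p = 5.75e-05 and 6.70e-07), and fell by 0.44 ± 0.07 with DHT after non-specific siRNA (edgeR, adjusted p = 0.00175). OIP5-AS1 fell by 0.46 ± 0.06 and by 0.54 ± 0.06 (edgeR, adjusted p = 3.06e-05 and 6.05e-06). DLEU2, a host of small RNAs, rose by 0.58 ± 0.15 and by 0.90 ± 0.15 (edgeR, adjusted p = 0.00467 and 0.000167). Among 14 tested neighbours and hosts of the RNAs, 3 rose and 7 fell under vehicle and 3 rose and 6 fell under DHT. For both lists the shares over all genes were 23.9% higher and 26.3% lower under vehicle, and 25.0% and 26.7% under DHT.

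Androgen-responsive and luminal genes were lower in the same PXN siRNA libraries. Of 9 listed, 0 rose and 7 fell under each treatment, against 26.3% of all genes lower under vehicle and 26.7% under DHT. KLK3 fell by 2.21 ± 0.24 under vehicle and by 1.94 ± 0.23 under DHT (edgeR, adjusted p = 3.40e-06 and 9.18e-06). With upper-quartile scaling 1 rose and 6 fell under vehicle, and 6 fell under DHT.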

How the data were processed

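Per the labels' protocols, RNA for 12 LNCaP libraries (3 in each of 4 groups) was extracted with an RNeasy Plus Mini kit and prepared with TruSeq Stranded mRNA. The authors deposited unnormalized read counts per gene symbol. Trimmomatic 0.32, STAR 2.4.2a, Subread 1.5.0p3, featureCounts and the GRCh38 build are named in the submitters' processing notes. The strand setting, annotation and treatment of multiply mapped reads are not stated here, so counts of overlapping and antisense genes are uncertain.

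Tests used R 4.3.3 with edgeR 4.0.16. Genes passing filterByExpr over the 4 groups (18468 of 36137) were scaled by TMM and fitted in 1 quasi-likelihood model of 4 group means on all 12 libraries, with 8 residual degrees of freedom. Calls are at a two-sided Benjamini-Hochberg adjusted p under 0.05. CPM uses the TMM-scaled totals, and the SE is the log2 fold change divided by the square root of F. The 2 PXN siRNA comparisons use separate libraries, and each DHT comparison shares libraries with a PXN siRNA comparison. Replicates of a group differed by more than sampling noise (chi-square per gene 6.03 to 26.6 over 12 pairs).

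The replicate numbers have no stated meaning. Same-numbered libraries deviated together from their group means. The correlations were 0.121 to 0.210 in the vehicle comparison of siRNAs. They were 0.145 to 0.383 in the DHT comparison after non-specific siRNA, and 0.100 to 0.307 in that after PXN siRNA. All exceed 0.1, so these comparisons met the limit for pairing. In the DHT comparison of siRNAs they were 0.0769 to 0.284, which was not taken as paired. The main model still held no pairing term, so its p-values are unpaired in all comparisons. The replicate block was the paired alternative, and the calls of the RNAs that it changed are given with their values.

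Alternatives were DESeq2 size factors, upper-quartile scaling, no filter, the replicate block, only the groups compared, each library left out, limma-voom 3.58.1 and DESeq2 1.42.0, plus 2 chosen after seeing the data. The model was tested on simulated data. The members and the 10 companion lists were chosen with earlier results of these data known. The lists covered other prostate RNAs, other nuclear RNAs, paraspeckle proteins, speckle and splicing genes, neighbours, and imprinted genes with regulators. They also covered thyroid hormone genes, androgen-responsive and luminal genes, interferon response and other cell types. Genes named are the 3 with the smallest p of each list and comparison, the neighbours, the 3 most alike profiles of each RNA, and genes that spell out a count of 5 or fewer, which were named after their values were seen. DIO3OS received no test for PXN siRNA. Some genes of the lists are not reported here by name. Gene positions and lengths come from GENCODE 29 and promoters from RefSeq on GRCh38.p14. Exon lengths may differ from those the authors counted over.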

Additional observations from a re-analysis of the deposited data

How the results depend on the processing

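MALAT1, PCAT1 and SCHLAP1 kept their direction and their call with PXN siRNA under each alternative run, in both treatments. The calls that changed, for NEAT1, PART1 and PCA3, are given above with their values, and their cause was not tested. Leaving out a library gave 3 to 4 of the 7 RNAs called under vehicle and 4 to 5 under DHT. The replicate block changed no other call of these RNAs. Under DHT, where the numbers were not taken as pairs, 5 of the 22 other widely expressed RNAs rose and 11 fell with the block.

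Background counts moved more. For DHT with non-specific siRNA, 1 of the 7 RNAs was called with the replicate block (0 to 1 with a library left out). The 900 genes became 2236 with the block, 304 without both number 2 libraries of that siRNA, and 424 to 1362 with a library left out. For DHT with PXN siRNA the 34 genes became 188 with no filter, 346 with the block, 18 with only the groups compared, 140 by the DESeq2 Wald test, 15 without both number 2 libraries, and 8 to 71 with a library left out. For the interaction the 0 genes became 1 with DESeq2 size factors, 35 with no filter, 58 with the block, 29 by the DESeq2 Wald test, and 0 to 43 with a library left out.

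Depth limited H19 (5 counts in all), PCA3 (6 to 40 per library) and PCGEM1 (11 to 33), with standard errors of up to 0.51 (log2) for PCA3 in the pairwise comparisons.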

Other observations

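A list of imprinted genes, which also held the regulators CTCF, CTCFL and ZFP57, moved both ways with PXN siRNA. Of 15 tested of 20 listed, DIO3 and MEST rose and 6 fell under vehicle, with CTCF among the falls. Under DHT 4 rose and 3 fell, with CTCF again among the falls. The medians were 0.04 and 0.03 (log2). Over all genes 23.9% rose and 26.3% fell under vehicle, and 25.0% and 26.7% under DHT. PEG3, a paternally expressed zinc finger gene, fell by 1.66 ± 0.14 under vehicle and by 1.10 ± 0.14 under DHT (edgeR, adjusted p = 4.14e-07 and 1.23e-05). IGF2R, the receptor that clears IGF2, fell by 0.74 ± 0.10 and by 0.87 ± 0.10 (edgeR, adjusted p = 2.48e-05 and 5.34e-06). MEST, an imprinted hydrolase-family gene, rose by 0.51 ± 0.08 and by 0.29 ± 0.08 (edgeR, adjusted p = 0.000131 and 0.00839). GRB10, an adaptor of growth factor receptors, fell by 0.68 ± 0.11 with DHT after non-specific siRNA (edgeR, adjusted p = 0.00204). With upper-quartile scaling 4 rose and 4 fell under vehicle, and 5 rose and 3 fell under DHT.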
